A study of Mus musculus with 59 samples.

Results

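The data analysed here are gene expression profiles of the diaphragm, the muscle that drives breathing, from mice that carried a cachectic melanoma (10 libraries) or a non-cachectic melanoma (9 libraries) and received mock injections. These 19 libraries were chosen by their group names from 59 muscle libraries. The series also holds 20 diaphragm libraries of mice injected with rFibcd1, a recombinant form of the secreted protein Fibcd1, and libraries of limb muscles. All animals were female athymic NCI Ath/nude mice, 4 months old, with a patient-derived human pediatric melanoma growing under the skin of the flank. Athymic hosts lack mature T cells. The cachectic tumour was the xenograft MAST360B and the non-cachectic tumour the xenograft MAST552A, so that each group stands for 1 tumour line, and the presence of cachexia and the identity of the tumour cannot be told apart. Mock injections were intraperitoneal and contained the carrier (PBS with bovine serum albumin) alone, and no tumour-free mice entered this comparison. The question was which genes the diaphragm expresses at another level when the tumour is one that wastes muscle. Values are TPM, a transcript abundance corrected for gene length that sums to the same total in every library. Of 47643 gene symbols, 13426 had a TPM of at least 1 in at least 9 of the 39 diaphragm libraries and were tested. The labels do not tie libraries to animals, while the study's methods describe replicate tissues as coming from separate animals. The study states fewer cachectic mock diaphragms for its own comparison than were used here, and which libraries those were is not given in the sources used here.

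The libraries were examined before the groups were compared. TPM keeps no record of sequencing depth, so the depth behind each value is unknown, and the number of genes above 0 ranged from 18133 to 19160 per mock library. No pair of mock libraries was identical (highest Pearson r of log2(TPM + 1) 0.991, lowest 0.888). Muscle markers were abundant in every library (summed TPM 47888 to 91363 in the cachectic and 55528 to 73912 in the non-cachectic group). The melanocyte markers Pmel, Mlana, Tyr and Tyrp1 were below 1 TPM in all, and the male-specific genes Ddx3y, Uty and Eif2s3y had 0 TPM in all of these libraries from female mice. Libraries fell into 2 states by Pcna-ps2, a copy of the replication gene Pcna, which was either below or at least 1 TPM. The low state held cachectic library 22 and non-cachectic libraries 61 to 65 and 67, and the high state held the other 9 cachectic libraries and non-cachectic libraries 66, 68 and 70. State and group were thus partly confounded, and the comparison was also fitted with the state as a term. Non-cachectic library 64 stood apart by its liver markers, with a summed TPM of 12176 against a group median of 259, and cachectic library 32 with 3197 against a group median of 243. Mitochondrially encoded transcripts took 38.1 ± 3.18% of TPM in the cachectic (SD, n = 10) and 47.5 ± 2.97% in the non-cachectic group. Because TPM sums to a fixed total, a lower share of these transcripts leaves more for all other genes.

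Cachexia is the loss of muscle and fat that accompanies many cancers. In wasting muscle, inflammatory cytokines of the interleukin-6 family act through the receptor subunit gp130 and the transcription factor STAT3, and adrenal glucocorticoids act through the glucocorticoid receptor. Both pathways are known to change the balance of protein synthesis and breakdown, the latter by the proteasome, to which ubiquitin ligases deliver proteins, and by lysosomes, to which autophagy delivers them. The same signals induce secreted acute-phase proteins and the metal-binding metallothioneins in liver and, to a lesser degree, in muscle.

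Across all genes, limma called 4143 higher (30.9%) and 358 lower (2.67%) in the cachectic group at an adjusted p under 0.05, and the median log2 fold change was 0.20 rather than 0. After each library was rescaled by the median ratio of its genes to their average, 996 were higher (7.42%) and 1174 lower (8.74%), and the median was 0.01. Every gene called higher after rescaling had also been called higher as deposited (996 genes, 7.42%), whereas 353 genes were called lower in both (2.63%). With rescaling and a term for the library state, the counts were 855 higher (6.37%) and 744 lower (5.54%). Within the high-state libraries alone (9 cachectic, 3 non-cachectic) they were 745 higher (5.55%) and 101 lower (0.752%). A gene is described here as robust when it was called in the same direction in 4 fits, as deposited and rescaled, each with and without the state term, which held for 620 genes higher (4.62%) and 229 lower (1.71%). A robust gene need not have been called within the high-state libraries or with rFibcd1 in both groups. Without any model, in TPM as deposited, every cachectic library lay above every non-cachectic one for 547 genes (4.07%) and below for 39 (0.29%). The mitochondrial share of TPM also separated the groups, at most 41.6% in cachectic and at least 41.9% in non-cachectic libraries. Overlap, here and below, was judged on deposited values and was not checked after rescaling. Counts over a gene list are given as deposited unless stated and stand beside these shares, of which 30.9% higher is the one for the deposited values. Fold changes below are cachectic minus non-cachectic on the log2(TPM + 1) scale, from TPM as deposited unless stated. For genes with low TPM this scale gives smaller changes than the TPM ratio would.

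**Figure D1:**
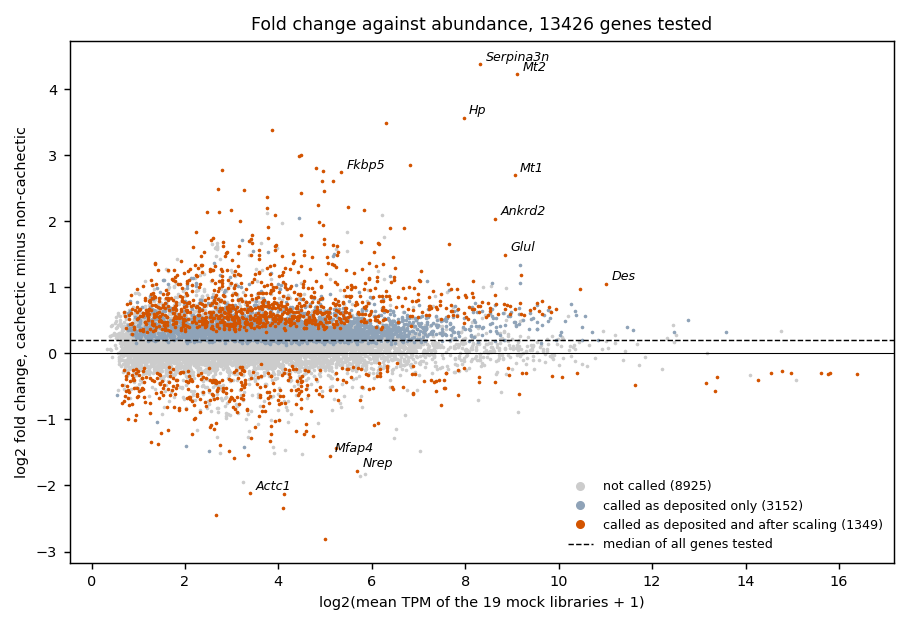
Each point is 1 of 13426 genes, with log2(mean TPM of the 19 mock libraries + 1) on the horizontal axis and the log2 fold change (cachectic minus non-cachectic) on the vertical axis. Blue-grey points were called only as deposited and orange points also after rescaling, the dashed line is the median of all genes (0.20), and the largest differences are positive (Serpina3n, Mt2, Hp) at intermediate to high abundance.

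The 15 highest fold changes among genes called both as deposited and after rescaling included 4 secreted acute-phase proteins (Serpina3n, Hp, Saa1 and Itih4), both metallothioneins and the glucocorticoid target Fkbp5. Serpina3n (chr12:104406729-104414329), a secreted inhibitor of serine proteases, ranged from 89 to 2184 TPM (median 227) in cachectic and 6.86 to 66.3 (median 10.4) in non-cachectic libraries (log2 fold change 4.37 ± 0.66 SE, adjusted p = 2.25e-05). All cachectic libraries lay above all non-cachectic ones. Hp, which encodes the haemoglobin-binding protein haptoglobin, ranged from 26.6 to 842 TPM (median 335) in cachectic and 6.22 to 419 (median 14) in non-cachectic libraries (log2 fold change 3.56 ± 0.74 SE, adjusted p = 0.000523). Its groups overlapped at both ends, since cachectic library 22 was the lowest of its group and the liver-rich library 64 the highest of the other. Saa1, serum amyloid A, ranged from 1.69 to 299 TPM (median 18.8) in cachectic and 0 to 67.4 (median 0.422) in non-cachectic libraries (log2 fold change 2.76 ± 0.73 SE, adjusted p = 0.00428), with library 64 again the highest of the non-cachectic group. Itih4, another acute-phase serum protein, ranged from 3.61 to 123 TPM (median 29) in cachectic and 0.801 to 157 (median 1.28) in non-cachectic libraries (log2 fold change 2.61 ± 0.7 SE, adjusted p = 0.00504). Its call was lost when the state was a term with rescaling (log2 fold change 1.96, adjusted p = 0.0768), and library 64 exceeded every cachectic library. The other library rich in liver markers, cachectic library 32, had the highest summed TPM of the acute-phase list (4325, beside 3994 in library 64). Without library 32 the fold changes were 3.40 for Hp, 2.33 for Saa1 and 2.38 for Itih4, and without library 64 they were 4.07, 3.32 and 3.23, all called. The part of liver RNA in these values was not tested.

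Over the acute-phase list as a whole, 9 of 23 genes tested were higher and 0 lower as deposited, and 6 were robust (Serpina3n, Hp, Saa1, Lcn2, Lrg1 and Serpina3i). Hp and Serpina3i also differed between library states (log2 difference 1.54, adjusted p = 0.0199, and 0.78, adjusted p = 0.000268). The fold change of Hp was 2.62 with rescaling and the state term (adjusted p = 0.0196). With rFibcd1 in both groups Hp was not called (log2 fold change 2.00, adjusted p = 0.0702). Lcn2, an iron-binding lipocalin that is also released by neutrophils, ranged from 9.45 to 122 TPM (median 19.9) in cachectic and 1.34 to 7.55 (median 3.97) in non-cachectic libraries (log2 fold change 2.43 ± 0.47 SE, adjusted p = 0.000253), without overlap. Neutrophil markers were low but moved the same way, with a summed TPM of 11.5 to 63.4 (median 37.5) in the cachectic against 4.28 to 26.1 (median 7.21) in the non-cachectic group. Only 4 of the 12 markers passed the filter. Of these, 3 were called higher as deposited, but 0 with the state term, 0 within the high-state libraries and 0 with rFibcd1 in both groups. Ly6g, Mmp8, Camp, Ltf, Elane and Mpo, the defining neutrophil genes, were below 1 TPM in all 19 libraries. Lrg1, a leucine-rich serum glycoprotein, had a median of 116 against 30.2 TPM (log2 fold change 1.89, adjusted p = 1.64e-05). Fgb, a fibrinogen gene that the liver expresses in quantity, had a median of 1.32 against 0.364 TPM (log2 fold change -0.03, adjusted p = 0.979). The fibrinogen gene Fga had a fold change of 0.05 (adjusted p = 0.97). The list's median of 0.62 stood beside 0.20 over all genes.

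**Figure D2:**
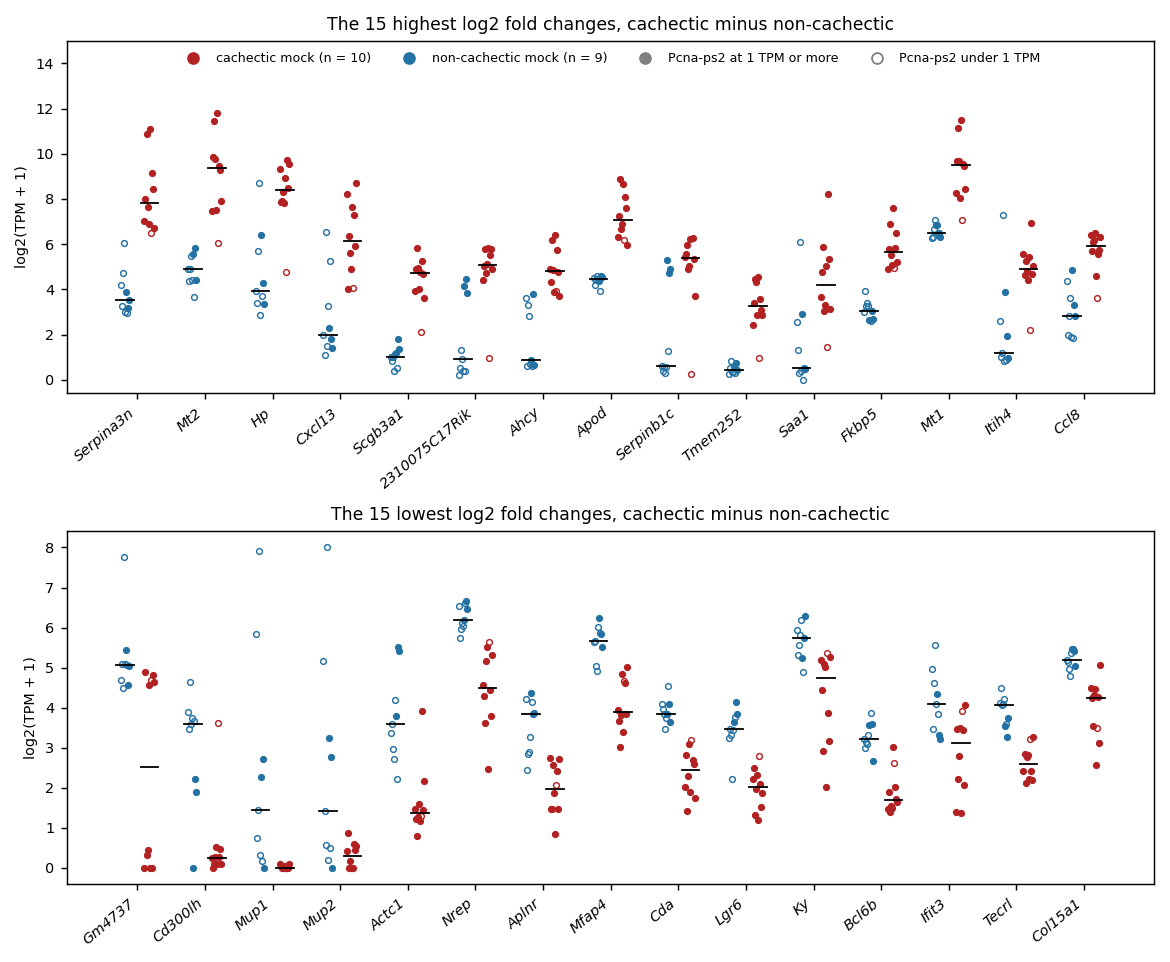
The plot shows log2(TPM + 1) of the 15 genes with the highest (top) and the 15 with the lowest (bottom) fold change in each of 10 cachectic (red) and 9 non-cachectic (blue) libraries, with open circles for libraries with Pcna-ps2 below 1 TPM and bars at the group medians. Serpina3n, Mt2, Scgb3a1, Apod, Tmem252, Fkbp5 and Mt1 separate the groups, whereas 2310075C17Rik and Serpinb1c follow the open and filled circles.

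Metallothioneins bind zinc and copper, and their promoters carry metal-response elements, short sites for the metal-sensing factor MTF-1. Mt2 (chr8:94172664-94173568) ranged from 65.6 to 3572 TPM (median 658) in cachectic and 11.8 to 55 (median 28.7) in non-cachectic libraries (log2 fold change 4.22 ± 0.65 SE, adjusted p = 2.64e-05). Mt1, its neighbour (chr8:94179082-94180327), ranged from 134 to 2850 TPM (median 727) in cachectic and 76.7 to 133 (median 88.5) in non-cachectic libraries (log2 fold change 2.69 ± 0.48 SE, adjusted p = 0.000122). Neither gene overlapped between the groups. In the cachectic group the highest library exceeded the lowest by far more than in the non-cachectic group, and both genes were lowest in cachectic library 22. The RefSeq promoter windows of both genes (GRCm38.p6, 250 bases before to 50 after the annotated start, plus strand, 5′ to 3′) are shown because these 2 adjoining genes were among the most strongly raised. Capitals mark each match to the metal-response core TGCACNC or TGCGCNC on either strand, with 4 matches for Mt2 and 3 for Mt1.
Mt2 (chr8:94172368-94172667): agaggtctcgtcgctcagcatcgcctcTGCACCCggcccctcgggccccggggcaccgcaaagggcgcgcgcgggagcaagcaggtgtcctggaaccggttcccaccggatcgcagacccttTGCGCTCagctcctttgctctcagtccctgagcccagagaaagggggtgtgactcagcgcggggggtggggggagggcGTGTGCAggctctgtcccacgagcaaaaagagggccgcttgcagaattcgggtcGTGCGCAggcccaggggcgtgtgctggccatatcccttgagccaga
Mt1 (chr8:94178839-94179138): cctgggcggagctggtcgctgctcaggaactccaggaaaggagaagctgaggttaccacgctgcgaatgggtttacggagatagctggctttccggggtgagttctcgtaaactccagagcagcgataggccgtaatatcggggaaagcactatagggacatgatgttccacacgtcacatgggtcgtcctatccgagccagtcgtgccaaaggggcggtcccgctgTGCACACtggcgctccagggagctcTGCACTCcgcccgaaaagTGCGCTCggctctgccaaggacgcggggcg
The core is short and frequent, and 36% of the 9954 promoter windows of genes tested held at least 1 match, against 33.4% of 449 windows of robustly higher genes and 33.6% of 152 windows of robustly lower genes. Of 18 windows in the metallothionein and zinc list, 10 held it (55.6%).

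Zinc transporters moved less than the metallothioneins. Of 20 genes in the list, 9 were higher and 0 lower as deposited, but after rescaling 4 were higher and 2 lower, and only Mt1, Mt2 and the zinc importer Slc39a1 were robust (log2 fold change 0.52 for Slc39a1). Slc39a14, the importer ZIP14, had a median of 11.2 against 3.9 TPM (log2 fold change 1.32, adjusted p = 0.00513). It missed the threshold with the state term and rescaling (log2 fold change 1.14, adjusted p = 0.0534), and its highest value came from a cachectic library far above the median of that group. Slc30a1, the zinc exporter, had a median of 10.5 against 8.7 TPM (log2 fold change 0.28, adjusted p = 0.0748). The list's median was 0.28 as deposited and 0.08 after rescaling, close to the medians of all genes.

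Glucocorticoid-response genes had a median fold change of 0.86 as deposited and 0.77 with rescaling and the state term. As deposited 18 of 26 were higher and 0 lower, after rescaling 13 and 0, and 11 were robust. Fkbp5, a co-chaperone that lowers the hormone affinity of the glucocorticoid receptor and is itself induced by it, ranged from 28.8 to 195 TPM (median 49.3) in cachectic and 5.0 to 14 (median 7.3) in non-cachectic libraries (log2 fold change 2.74 ± 0.38 SE, adjusted p = 8.2e-06), without overlap. Map3k6, a stress-activated kinase, ranged from 4.92 to 67.1 TPM (median 17.7) in cachectic and 1.65 to 4.33 (median 2.96) in non-cachectic libraries (log2 fold change 2.20 ± 0.36 SE, adjusted p = 4.84e-05), again without overlap. Ddit4, which restrains mTORC1, ranged from 21.2 to 303 TPM (median 65.9) in cachectic and 8.56 to 28.1 (median 14) in non-cachectic libraries (log2 fold change 2.17 ± 0.33 SE, adjusted p = 2.25e-05). Glul, glutamine synthetase, was far more abundant, at from 252 to 1373 TPM (median 676) in cachectic and 163 to 294 (median 228) in non-cachectic libraries (log2 fold change 1.49 ± 0.25 SE, adjusted p = 6.76e-05). Zbtb16, a transcription factor, had a log2 fold change of 1.36 and non-overlapping groups, while Sgk1, a kinase, and Tsc22d3, which encodes the anti-inflammatory protein GILZ, had fold changes of 1.13 and 0.87 with overlap. Per1, a clock gene that glucocorticoids also induce, had a median of 41.2 against 35.1 TPM (log2 fold change 0.58, adjusted p = 0.179). The summed TPM of the list ran from 2292 to 5815 TPM (median 2814) in cachectic and 1178 to 1783 (median 1436) in non-cachectic libraries.

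The receptor itself was not among the higher genes. Nr3c1, which encodes the glucocorticoid receptor, ranged from 19.1 to 36.7 TPM (median 23.3) in cachectic and 24.5 to 35.2 (median 29.2) in non-cachectic libraries (log2 fold change -0.20 ± 0.17 SE, adjusted p = 0.347). After rescaling it was lower (log2 fold change -0.43, adjusted p = 0.0208). Hsd11b1, the enzyme that regenerates active glucocorticoid inside cells, ranged from 9.51 to 77.4 TPM (median 24.6) in cachectic and 2.74 to 45.7 (median 4.86) in non-cachectic libraries (log2 fold change 1.79 ± 0.42 SE, adjusted p = 0.00167), and missed the threshold with rescaling and the state term (log2 fold change 1.15, adjusted p = 0.0638). Adipocytes also express Hsd11b1. Adipocyte markers summed to 1524 to 7080 TPM (median 2223) in the cachectic and 992 to 3020 TPM (median 1445) in the non-cachectic group, and their part in the result was not tested. Apod, a lipocalin of adipose and other tissues, ranged from 61.9 to 477 TPM (median 133) in cachectic and 14.3 to 23.1 (median 21.2) in non-cachectic libraries (log2 fold change 2.85 ± 0.37 SE, adjusted p = 3.8e-06) and did not overlap.

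The promoter window of Serpina3n is shown because this gene had the highest fold change and because glucocorticoids are known to induce it. Capitals mark the match to ACANNNTGT, the core shared by palindromic steroid-receptor sites, which reads the same on both strands.
Serpina3n (chr12:104406458-104406757, plus strand): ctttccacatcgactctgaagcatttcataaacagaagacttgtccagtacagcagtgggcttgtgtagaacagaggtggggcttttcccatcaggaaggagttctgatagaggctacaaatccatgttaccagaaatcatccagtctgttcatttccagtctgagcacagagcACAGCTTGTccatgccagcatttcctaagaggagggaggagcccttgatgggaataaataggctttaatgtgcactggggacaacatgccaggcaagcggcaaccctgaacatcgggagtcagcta
The window held 1 match. Such a core was present in 4.22% of all 9954 windows, in 5.57% of the robustly higher and 4.61% of the robustly lower genes, and in 3 of 24 windows of the glucocorticoid-response list (12.5%).

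Genes of the interleukin-6 pathway rose at several levels, from receptor subunits to targets. Of 25 genes tested, 16 were higher and 0 lower as deposited, 14 were higher and 1 lower after rescaling, and 10 were robust. Among the receptors, Osmr, the oncostatin M receptor subunit, ranged from 10.1 to 26.2 TPM (median 15.1) in cachectic and 3.81 to 6.84 (median 4.95) in non-cachectic libraries (log2 fold change 1.43 ± 0.17 SE, adjusted p = 1.49e-06), without overlap. Il6st, which encodes gp130, ranged from 46.8 to 85.3 TPM (median 64.5) in cachectic and 35.6 to 46.7 (median 38.7) in non-cachectic libraries (log2 fold change 0.59 ± 0.12 SE, adjusted p = 0.000614), also without overlap. Il6ra, the interleukin-6 binding subunit, had a median of 13 against 6.22 TPM (log2 fold change 0.91, adjusted p = 0.00386), and missed the threshold with rescaling and the state term (adjusted p = 0.0698). Il4ra, the interleukin-4 receptor and itself a STAT target, had a fold change of 1.64 and no overlap. The ligand genes Il6 and Lif were below the filter on low values, so that their levels could not be compared.

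Among the signal carriers and targets, Stat3 ranged from 33.3 to 71.3 TPM (median 46.6) in cachectic and 19 to 25.5 (median 21.5) in non-cachectic libraries (log2 fold change 1.07 ± 0.14 SE, adjusted p = 3.8e-06). Socs3, the feedback inhibitor of gp130 signalling, ranged from 21.1 to 106 TPM (median 42.5) in cachectic and 4.93 to 10.8 (median 6.49) in non-cachectic libraries (log2 fold change 2.45 ± 0.3 SE, adjusted p = 1.49e-06). Cebpd, a transcription factor of the acute-phase response, ranged from 19.8 to 96.9 TPM (median 43.2) in cachectic and 6.08 to 15.4 (median 6.9) in non-cachectic libraries (log2 fold change 2.25 ± 0.3 SE, adjusted p = 3.8e-06). None of these 3 genes overlapped between the groups. Junb (log2 fold change 1.54), Myc (1.47) and Bcl3 (1.17), transcriptional regulators that STAT3 is known to induce, also separated the groups, and Cebpb rose by 0.83 on the log2 scale. Summed TPM of the list ran from 416 to 1176 TPM (median 617) in cachectic and 296 to 388 (median 326) in non-cachectic libraries, so the lowest cachectic library lay above the highest non-cachectic one.

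The promoter window of Socs3 is shown because Socs3 had the highest fold change of the interleukin-6 list, with the match to the STAT core TTCNNNGAA, which reads the same on both strands, in capitals. This RefSeq window lies wholly inside the GENCODE span of the gene (chr11:117966079-117970047). The annotations thus place its start differently, and the window may not be promoter sequence by GENCODE.
Socs3 (chr11:117969317-117969616, minus strand): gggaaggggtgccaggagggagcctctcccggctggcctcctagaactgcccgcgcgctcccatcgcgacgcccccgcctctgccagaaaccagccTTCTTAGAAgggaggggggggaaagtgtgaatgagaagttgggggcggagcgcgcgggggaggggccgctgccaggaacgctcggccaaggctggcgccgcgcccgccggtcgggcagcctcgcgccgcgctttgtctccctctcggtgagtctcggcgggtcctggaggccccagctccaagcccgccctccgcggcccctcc
It held 1 match, as did 7.0% of all windows at least once, 8.91% of those of robustly higher and 3.95% of those of robustly lower genes. In the interleukin-6 list, 3 of 23 windows (13%) held one.

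**Figure D3:**
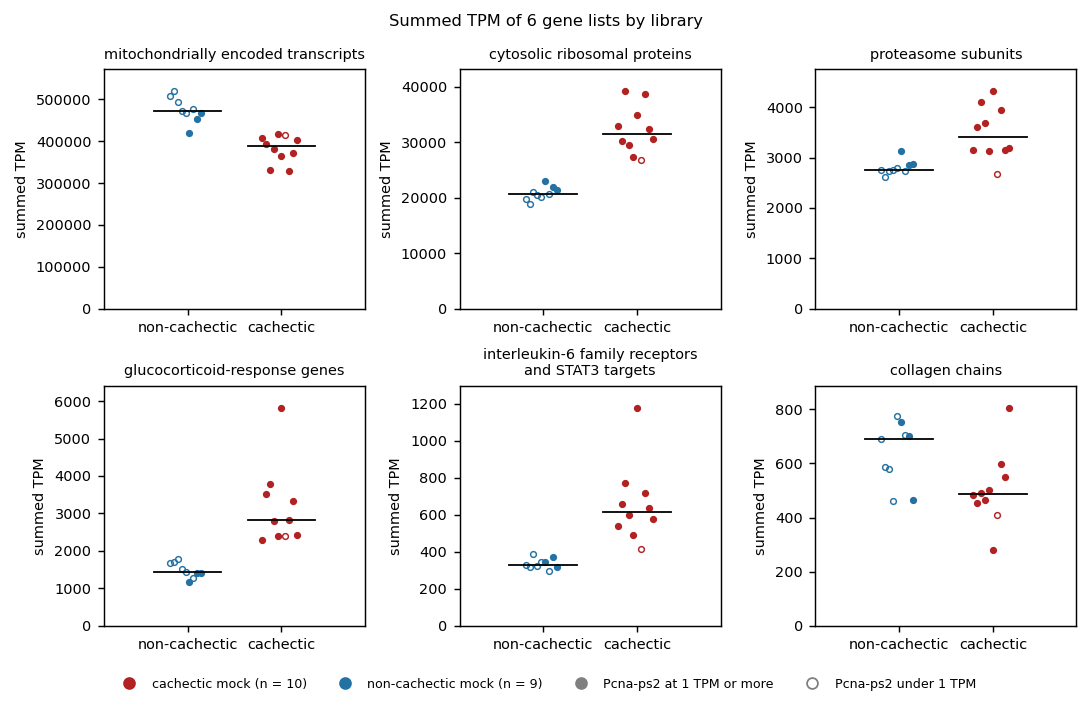
Points are the summed TPM of 6 gene lists in each of the 10 cachectic (red) and 9 non-cachectic (blue) libraries, open where Pcna-ps2 was below 1 TPM, with bars at the group medians and axes from 0. The groups do not overlap for mitochondrially encoded transcripts (lower), ribosomal proteins, glucocorticoid-response and interleukin-6 genes (higher), and overlap for proteasome subunits and collagen chains.

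Chemokines, complement and the tumour necrosis factor pathway showed a more mixed picture. Of 25 chemokine genes, 7 were higher and 0 lower as deposited (beside 30.9% and 2.67% of all genes), 6 and 1 after rescaling, and 4 were robust (Ackr1, Ccl6, Ccl9 and Cxcl14). Ackr1, a chemokine-binding receptor of venules, ranged from 7.56 to 15.7 TPM (median 12.2) in cachectic and 2.33 to 5.43 (median 3.19) in non-cachectic libraries (log2 fold change 1.52 ± 0.19 SE, adjusted p = 1.49e-06), without overlap. Ccl8, a chemokine that draws monocytes, ranged from 11.3 to 89.2 TPM (median 59.7) in cachectic and 2.62 to 27.5 (median 6.15) in non-cachectic libraries (log2 fold change 2.60 ± 0.65 SE, adjusted p = 0.00267). Ccl8 also differed between the library states (log2 difference of the high from the low state 2.32, adjusted p = 2.27e-05) and was not called with rescaling and the state term (adjusted p = 0.105). The B-cell chemokine Cxcl13 likewise missed the threshold there (log2 fold change 2.62, adjusted p = 0.0679), although within the high-state libraries its fold change was 4.69 (adjusted p = 0.0358). Ccl2, a chemokine that also draws monocytes, had a median of 1.66 against 1.5 TPM (log2 fold change -0.27, adjusted p = 0.682).

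Complement genes had a median of 0.85 as deposited and 0.48 with rescaling and the state term. As deposited 15 of 25 were higher and 0 lower, after rescaling 12 and 0, but 3 were robust and none separated the groups. Within the high-state libraries 11 were higher and 0 lower, beside 5.55% of all genes higher, with a median of 0.90. C7, a component of the membrane attack complex, had a median of 30.7 against 11.5 TPM (log2 fold change 1.28, adjusted p = 0.000643). Serping1, the C1 inhibitor, had a median of 325 against 179 TPM (log2 fold change 0.89, adjusted p = 0.000194). C5ar1, the receptor of the fragment C5a, rose by 1.25 on the log2 scale. The classical-pathway gene C1qa, which macrophages express, had a median of 189.6 against 72.6 TPM (log2 fold change 1.25, adjusted p = 0.00407), and C3 had a median of 693 against 465 TPM (log2 fold change 0.51, adjusted p = 0.178). Macrophage markers summed to 290 to 1393 TPM (median 658) in the cachectic and 173 to 709 TPM (median 431) in the non-cachectic group, with 4 of 11 higher and the scavenger receptor Cd163 (log2 fold change 1.56) and mannose receptor Mrc1 (1.19) robust. In bulk tissue, more cells of a type and more RNA per cell cannot be told apart, and the part of macrophages in the complement values was not tested. In the tumour necrosis factor and NF-kappaB list 13 of 32 were higher and 0 lower, with Tnfrsf1a, the principal TNF receptor, at from 49.1 to 102 TPM (median 69) in cachectic and 29.8 to 44.3 (median 36.9) in non-cachectic libraries (log2 fold change 0.98 ± 0.14 SE, adjusted p = 1.04e-05) and without overlap. Tnfrsf12a, the TWEAK receptor that denervation raises, had a median of 27.2 against 22.6 TPM (log2 fold change 0.17, adjusted p = 0.752).

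Few interferon-response genes were called as deposited. Of 45 tested, 1 was higher and 1 lower as deposited, and with rescaling and the state term 0 were higher and 8 lower, with a median of -0.66 in place of -0.06. In that fit 6.37% of all genes were higher and 5.54% lower, so the list was called lower more often than all genes. Within the high-state libraries 1 was higher and 0 lower, with a median of -0.05. Ifit3, an interferon-induced antiviral gene, was the robust member and ranged from 1.58 to 15.7 TPM (median 7.87) in cachectic and 8.32 to 46 (median 16) in non-cachectic libraries (log2 fold change -1.33 ± 0.43 SE, adjusted p = 0.0161), with overlap. Within the high-state libraries its fold change was -0.92 (adjusted p = 0.3). With rFibcd1 in both groups the list had a median of 0.64 beside 0.08 over all genes, and Ifit3 had a fold change of 0.60 (adjusted p = 0.381). The difference of Ifit3 between mock and rFibcd1 did not pass the test (-1.93 ± 0.6 SE, adjusted p = 0.483). Of the 50-base words of its transcript 51.2% also occur in Ifit3b, so that reads of the pair may have been split between them. None of 21 genes of the major histocompatibility complex was called in any fit, and the class I light chain B2m had a median of 748 against 629 TPM (log2 fold change 0.17, adjusted p = 0.761). The window of Ifit3 is shown as that of a fallen gene, with the 3 matches to the interferon-response core GAAANNGAA on either strand in capitals.
Ifit3 (chr19:34583279-34583578, plus strand): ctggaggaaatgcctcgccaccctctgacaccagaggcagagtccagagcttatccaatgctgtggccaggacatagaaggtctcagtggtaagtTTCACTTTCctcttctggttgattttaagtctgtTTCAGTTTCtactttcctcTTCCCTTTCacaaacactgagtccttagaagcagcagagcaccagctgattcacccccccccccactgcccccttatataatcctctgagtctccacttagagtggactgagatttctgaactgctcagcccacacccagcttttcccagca
Of the interferon list 19 of 32 windows (59.4%) held this core, compared with 7.35% of all windows, 9.13% of the robustly higher and 9.87% of the robustly lower genes.

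Ribosomal protein genes rose almost as a block. Of 78 genes of the cytosolic ribosome, 75 were higher and 0 lower as deposited, 45 and 0 after rescaling, and 43 were robust. In 64 of them every cachectic library exceeded every non-cachectic one in TPM as deposited, against a background of 4.07% of genes. The median fold change was 0.62 as deposited and 0.39 after rescaling, beside 0.20 and 0.01 over all genes. Rpl30 had the largest fold change as deposited, at from 96.6 to 180.1 TPM (median 142) in cachectic and 43.9 to 107 (median 72.6) in non-cachectic libraries (log2 fold change 1.01 ± 0.2 SE, adjusted p = 0.000335). It also differed between the library states (log2 difference 0.77, adjusted p = 1.23e-06), and with rescaling and the state term its fold change was 0.49 (adjusted p = 0.0332). Rps7 had a median of 493 against 269.9 TPM (log2 fold change 0.88, adjusted p = 2.25e-05). Rpl3 and Rpl3l, which encode alternative versions of the same ribosomal protein, gave unlike fold changes, and the difference between these was not tested. Rpl3, the general form, ranged from 66.7 to 133 TPM (median 109) in cachectic and 46 to 66.5 (median 55.8) in non-cachectic libraries (log2 fold change 0.87 ± 0.2 SE, adjusted p = 0.00119), without overlap. Rpl3l, the form restricted to striated muscle, ranged from 358 to 476 TPM (median 430.5) in cachectic and 348 to 460.5 (median 392) in non-cachectic libraries (log2 fold change 0.09 ± 0.068 SE, adjusted p = 0.299), and rescaling placed it at -0.14 (adjusted p = 0.459). Ribosomal protein genes have many processed copies in the genome, and how the authors' counting assigned reads shared with them was not tested. Summed TPM of the list ran from 26806 to 39178 TPM (median 31488) in cachectic and 18830 to 22994 (median 20665) in non-cachectic libraries. Ribosomal proteins of the mitochondrion did not follow. Of 77 tested, 18 were higher and 1 lower as deposited, 0 higher and 12 lower after rescaling, and 0 robust.

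**Figure D4:**
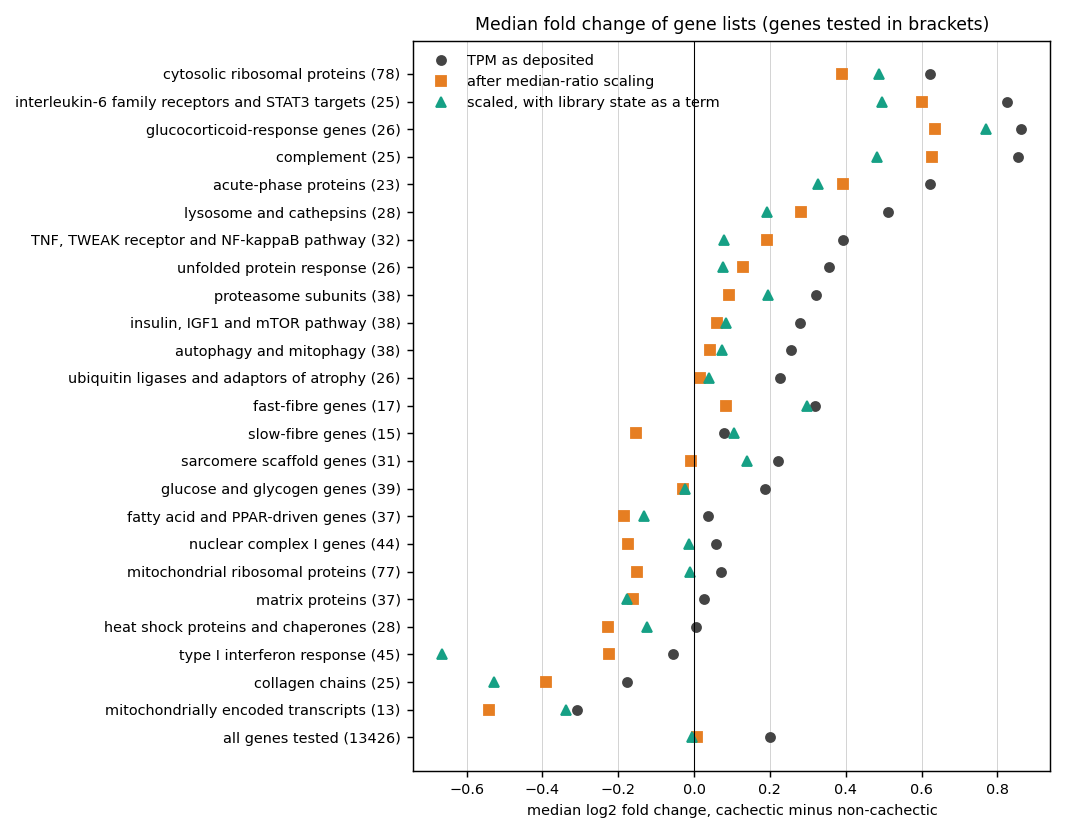
Each line gives the median log2 fold change (cachectic minus non-cachectic) of a gene list from TPM as deposited (black circles), after median-ratio scaling (orange squares) and with the library state as a further term (green triangles), with the number of genes tested in brackets. Ribosomal, interleukin-6, glucocorticoid and complement lists stay at or above 0.39 in all 3 fits, whereas the autophagy and ligase lists lie near all genes tested and interferon, collagen and mitochondrially encoded genes lie below 0.

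Genes of protein breakdown depended on the scaling. Of 38 proteasome subunits 26 were higher and 0 lower as deposited, with a median of 0.32. After rescaling 0 were higher and 1 lower and the median was 0.09, and with the state term as well it was 0.20, beside -0.01 over all genes. Psmd4, the ubiquitin receptor of the regulatory cap, ranged from 76.3 to 162 TPM (median 90.6) in cachectic and 58.2 to 70.1 (median 64.5) in non-cachectic libraries (log2 fold change 0.59 ± 0.15 SE, adjusted p = 0.00364), without overlap. After rescaling its fold change was 0.36 (adjusted p = 0.182). The core subunit Psma1 had a median of 64.2 against 63.4 TPM (log2 fold change -0.02, adjusted p = 0.867). In summed TPM the proteasome ran from 2678 to 4319 TPM (median 3406) in cachectic and 2620 to 3123 (median 2762) in non-cachectic libraries.

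Among ubiquitin ligases and adaptors of atrophy, 6 of 26 were higher and 0 lower as deposited (beside 30.9% and 2.67% of all genes), 2 and 2 after rescaling, and Fbxo31 was the robust one, at from 96.6 to 431 TPM (median 135) in cachectic and 61.6 to 87.1 (median 70.3) in non-cachectic libraries (log2 fold change 1.12 ± 0.26 SE, adjusted p = 0.00151) and without overlap. Fbxo31 was not called within the high-state libraries (log2 fold change 1.20, adjusted p = 0.0912) or with rFibcd1 in both groups (0.40, adjusted p = 0.333). In each of these comparisons 0 genes of the list were called higher. Trim63, the muscle ligase MuRF1, ranged from 92.8 to 1481 TPM (median 144) in cachectic and 83.4 to 118 (median 91.1) in non-cachectic libraries (log2 fold change 0.96 ± 0.38 SE, adjusted p = 0.0474). After rescaling it was not called (log2 fold change 0.73, adjusted p = 0.212). Fbxo32, the muscle ligase atrogin-1, had a median of 127 against 106 TPM (log2 fold change 0.55, adjusted p = 0.192). Cblb, a ligase that acts on insulin receptor substrate, had a median of 14.1 against 8.34 TPM (log2 fold change 0.72, adjusted p = 0.00183). The transcription factors that drive atrophy ligases were higher as deposited but not after rescaling, with Foxo1 at 0.62 (adjusted p = 0.00799, rescaled 0.0685) and Foxo3 at 0.63 (adjusted p = 0.0022, rescaled 0.0591). The best-known atrophy ligases thus overlapped between the groups and varied widely among cachectic libraries.

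In the autophagy list 18 of 38 were higher and 0 lower as deposited, with 2 higher and 4 lower after rescaling. Map1lc3b, a protein of the autophagosome membrane, ranged from 114 to 265 TPM (median 131) in cachectic and 78.9 to 90.7 (median 87.4) in non-cachectic libraries (log2 fold change 0.79 ± 0.16 SE, adjusted p = 0.000338), was robust and did not overlap. The other robust member, 8430408G22Rik, a FoxO target also known as Depp1, had a median of 75.9 against 29.2 TPM (log2 fold change 1.32, adjusted p = 0.00172). Lysosomal genes had a higher median, 0.51 as deposited and 0.28 after rescaling, with 18 of 28 higher, 1 lower and 4 robust. Macrophages are rich in lysosomes, and the macrophage markers given above had medians of 0.71 and 0.54 in the same fits, whose part in the lysosomal values was not tested. Ctsl, the lysosomal protease cathepsin L, had a median of 257 against 164 TPM (log2 fold change 0.86, adjusted p = 0.00174). Lgmn, the protease legumain, had a median of 102 against 52.4 TPM (log2 fold change 0.94, adjusted p = 0.000264). Ctsk, cathepsin K, was the lower one, at from 4.62 to 8.78 TPM (median 6.94) in cachectic and 6.21 to 13.9 (median 9.29) in non-cachectic libraries (log2 fold change -0.48 ± 0.16 SE, adjusted p = 0.0204). Lgmn also differed between library states (log2 difference 0.55, adjusted p = 0.000481).

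Signalling genes that set muscle growth depended on the scaling as well. In the insulin, IGF1 and mTOR list 19 of 38 were higher and 0 lower as deposited (median 0.28), 6 and 0 after rescaling (median 0.06), and 5 were robust (Igfbp3, Ddit4, Igf1r, Mtor and Akt1). Igfbp3, which binds IGF1 in the circulation and tissue, had a median of 57.7 against 20 TPM (log2 fold change 1.69, adjusted p = 9.46e-05). Mtor, the kinase, ranged from 19.8 to 46.2 TPM (median 26.8) in cachectic and 14.8 to 17.1 (median 16.2) in non-cachectic libraries (log2 fold change 0.77 ± 0.15 SE, adjusted p = 0.000239), without overlap. Igf1, the growth factor, had a median of 6.63 against 6.12 TPM (log2 fold change -0.16, adjusted p = 0.624). Receptor and kinase therefore rose beside the inhibitor Ddit4, while the ligand was not called. In the myostatin, activin and TGF-beta list 8 of 24 were higher and 0 lower as deposited, near the share over all genes, and 3 and 0 after rescaling. Tgfbr2, the type II TGF-beta receptor, had a median of 88.4 against 45.9 TPM (log2 fold change 0.86, adjusted p = 6.91e-05), without overlap. Inhbb, which encodes the beta-B chain of activin B, had a median of 2.37 against 0.854 TPM (log2 fold change 0.89, adjusted p = 0.000517). Mstn, myostatin, had a median of 13.2 against 15.1 TPM (log2 fold change -0.16, adjusted p = 0.574). In the BMP list 4 of 22 were higher as deposited, with 2 higher and 1 lower after rescaling, and Nog, the secreted antagonist Noggin, ranged from 8.89 to 25.6 TPM (median 17.6) in cachectic and 6.1 to 8.62 (median 7.56) in non-cachectic libraries (log2 fold change 1.04 ± 0.21 SE, adjusted p = 0.000484), without overlap.

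Of the secreted factors and receptors linked to wasting, 4 of 16 were higher and 3 lower as deposited (beside 30.9% and 2.67% of all genes), 2 and 3 after rescaling, and 5 were robust. Scgb3a1, a secretoglobin, had the highest fold change of these (3.38) and did not overlap. Ace, the angiotensin-converting enzyme, had a median of 50.6 against 19.4 TPM (log2 fold change 1.30, adjusted p = 9.35e-06), without overlap. Il15, a cytokine that muscle releases, had a median of 6.96 against 12.7 TPM (log2 fold change -0.86, adjusted p = 0.00123). Fndc5, the precursor of irisin, ranged from 55.5 to 121 TPM (median 98.5) in cachectic and 123 to 163 (median 141) in non-cachectic libraries (log2 fold change -0.62 ± 0.15 SE, adjusted p = 0.00215), and every cachectic library lay below every non-cachectic one. Pthlh, parathyroid hormone-related protein, was scarce and fell by 0.83 on the log2 scale.

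Fibre-type genes were called about as often as all genes. Of 15 slow-fibre genes 4 were higher and 0 lower, of 17 fast-fibre genes 5 were higher and 1 lower, beside 30.9% and 2.67% of all genes, and after rescaling these counts became 1 and 0, and 0 and 1. Ankrd2, a stretch-responsive ankyrin-repeat protein of slow fibres, ranged from 168 to 2015 TPM (median 405) in cachectic and 33.5 to 285 (median 127) in non-cachectic libraries (log2 fold change 2.03 ± 0.54 SE, adjusted p = 0.00462) and was robust. The myosin heavy chains were not called after rescaling. Myh7, of slow fibres, ranged from 319 to 598 TPM (median 461) in cachectic and 265 to 419 (median 347) in non-cachectic libraries (log2 fold change 0.40 ± 0.13 SE, adjusted p = 0.0161, rescaled adjusted p = 0.484). Myh2, of fast oxidative fibres, had a median of 2566 against 2762 TPM (log2 fold change -0.11, adjusted p = 0.515). Myh1, of fast fibres and the most abundant, had a median of 5213 against 4539 TPM (log2 fold change 0.43, adjusted p = 0.115), and Myh4, of the fastest fibres, had a median of 209 against 127 TPM (log2 fold change 1.00, adjusted p = 0.205).

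Of 31 sarcomere scaffold genes 2 were robustly higher and 1 lower, and of 29 calcium genes 1 and 1, beside 4.62% and 1.71% of all genes. Des, the intermediate filament desmin, ranged from 1404 to 4163 TPM (median 2550) in cachectic and 1071 to 1725 (median 1266) in non-cachectic libraries (log2 fold change 1.05 ± 0.2 SE, adjusted p = 0.000264). Lmod3, which nucleates thin filaments, fell and had a median of 131 against 231 TPM (log2 fold change -0.79, adjusted p = 0.000229). Cacng1, the gamma subunit of the muscle calcium channel that senses voltage, ranged from 47.8 to 199.7 TPM (median 107) in cachectic and 22.6 to 39.6 (median 28.6) in non-cachectic libraries (log2 fold change 1.66 ± 0.25 SE, adjusted p = 2.64e-05), without overlap. Jph2, which holds the membranes of the triad together, had a median of 84.9 against 111 TPM (log2 fold change -0.51, adjusted p = 0.00262). Mb, myoglobin, had a median of 9152 against 12417 TPM (log2 fold change -0.58, adjusted p = 0.00698), also robustly lower. Actc1, the cardiac form of alpha-actin that adult diaphragm expresses at a low level, ranged from 0.72 to 14.1 TPM (median 1.59) in cachectic and 3.67 to 44.4 (median 11) in non-cachectic libraries (log2 fold change -2.12 ± 0.52 SE, adjusted p = 0.00238). Cachectic library 32 was the only one of its group above 4 TPM for Actc1.

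At the neuromuscular junction 7 of 23 genes were higher and 1 lower as deposited (beside 30.9% and 2.67% of all genes), 4 and 1 after rescaling, and 5 were robust. Chrna1, the alpha subunit of the acetylcholine receptor, had a median of 10.7 against 6.7 TPM (log2 fold change 0.64, adjusted p = 0.000788). Runx1, a transcription factor that denervated muscle induces, had a median of 2.47 against 1.2 TPM (log2 fold change 0.69, adjusted p = 0.00163), without overlap. Gadd45a, another denervation-responsive gene, had a median of 26.2 against 14.1 TPM (log2 fold change 1.00, adjusted p = 0.00459), with a rescaled adjusted p of 0.049. Colq, which anchors acetylcholinesterase, fell by 0.46 on the log2 scale. Among 18 myogenic genes 4 were higher and 2 lower as deposited (beside 30.9% and 2.67% of all genes), and 1 and 3 after rescaling. Myf6, the myogenic factor of mature fibres, ranged from 98.3 to 231 TPM (median 118) in cachectic and 47.7 to 91.5 (median 61.3) in non-cachectic libraries (log2 fold change 0.99 ± 0.16 SE, adjusted p = 4e-05), without overlap. It was not called within the high-state libraries (log2 fold change 0.65, adjusted p = 0.0981) or with rFibcd1 in both groups (0.41, adjusted p = 0.0827).

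Collagen chains were called lower where they were called. Of 25 collagen chains 0 were higher and 4 lower as deposited, 0 and 6 after rescaling, and 0 in the high-state libraries alone. The medians were -0.18 as deposited and -0.53 with rescaling and the state term. Col15a1, of the basement membrane around fibres and vessels, ranged from 4.89 to 32.2 TPM (median 17.9) in cachectic and 26.4 to 43 (median 35.4) in non-cachectic libraries (log2 fold change -1.25 ± 0.32 SE, adjusted p = 0.00306), and was not called within the high-state libraries (log2 fold change -1.30, adjusted p = 0.0668). Col6a1 and Col6a2, which form the type VI microfibrils beside the fibre, fell by 0.71 and 0.88 on the log2 scale. Col6a3, the partner chain of both, was just outside the threshold, at -0.72 (adjusted p = 0.0515), and was called after rescaling (adjusted p = 0.0119). Col1a1, of fibrillar collagen, had a median of 42.8 against 63.7 TPM (log2 fold change -0.52, adjusted p = 0.282). Summed TPM of the collagens ran from 280.3 to 805 TPM (median 487) in cachectic and 462 to 776 (median 689) in non-cachectic libraries, with wide overlap. Fibroblast markers summed to 1521 to 2498 TPM (median 2042) in the cachectic and 1437 to 2204 TPM (median 1762) in the non-cachectic group, with 1 of 10 higher.

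Other matrix genes moved in both directions. Of 37 matrix proteins 9 were higher and 1 lower as deposited, and 5 and 6 after rescaling. Mfap4, a microfibril-associated protein, ranged from 7.08 to 31 TPM (median 13.9) in cachectic and 29.2 to 74.6 (median 49.5) in non-cachectic libraries (log2 fold change -1.55 ± 0.39 SE, adjusted p = 0.00267). Mgp, matrix Gla protein, an inhibitor of calcification, had a median of 268 against 141 TPM (log2 fold change 0.98, adjusted p = 0.000315). Of 32 proteases, inhibitors and crosslinking enzymes 6 were higher and 3 lower as deposited, and 3 and 4 after rescaling. Lox, lysyl oxidase, which crosslinks collagen, ranged from 5.63 to 21.3 TPM (median 8.24) in cachectic and 1.7 to 3.89 (median 3.17) in non-cachectic libraries (log2 fold change 1.41 ± 0.25 SE, adjusted p = 0.000111), without overlap. Timp4, an inhibitor of matrix metalloproteinases, had a median of 28.2 against 9.69 TPM (log2 fold change 1.36, adjusted p = 0.000861), without overlap. Plau, urokinase, ranged from 11.3 to 20 TPM (median 14.6) in cachectic and 21.1 to 33.1 (median 29.3) in non-cachectic libraries (log2 fold change -0.83 ± 0.15 SE, adjusted p = 0.000116), with every cachectic library below every non-cachectic one. It also differed between library states (log2 difference -0.38, adjusted p = 0.00301) and was not called within the high-state libraries (log2 fold change -0.55, adjusted p = 0.0736). With rFibcd1 in both groups its fold change was -0.04 (adjusted p = 0.881), and the interaction did not pass the test (-0.78 ± 0.2 SE, adjusted p = 0.409).

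In energy metabolism, mitochondrially encoded transcripts were lower, and few nuclear ones were called. Of 13 mitochondrially encoded genes 0 were higher and 10 lower as deposited, and mt-Nd2 and mt-Nd3 were robust. Their mean share of TPM differed by -9.39 percentage points, beside an SD of 3.18 points in the cachectic and 2.97 in the non-cachectic group. An exact two-sided permutation test of the difference in means gave p = 1.08e-05, the smallest it can give. Within the high-state libraries the difference was -6.94 points (exact permutation p = 0.00909, 9 against 3). Nuclear genes of complex I (44 tested) had 3 higher and 0 lower as deposited and 0 and 3 after rescaling, and those of complexes II to V (50 tested) 6 and 2, then 0 and 5. In the fatty acid list 6 of 37 were higher and 4 lower as deposited, and 2 and 8 after rescaling. Hadha and Hadhb, the subunits of the mitochondrial trifunctional protein of beta-oxidation, fell by 0.36 and 0.43 on the log2 scale, and Hadhb separated the groups, at from 182 to 321 TPM (median 298) in cachectic and 329 to 378 (median 362) in non-cachectic libraries (log2 fold change -0.43 ± 0.14 SE, adjusted p = 0.015). Acsl1, which activates fatty acids, had a median of 158 against 221 TPM (log2 fold change -0.52, adjusted p = 0.0133). Plin4, a lipid-droplet protein, moved the other way, at from 211 to 823 TPM (median 337) in cachectic and 149.7 to 218 (median 185) in non-cachectic libraries (log2 fold change 0.91 ± 0.22 SE, adjusted p = 0.00234).

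Among 39 glucose and glycogen genes 12 were higher and 2 lower as deposited (beside 30.9% and 2.67% of all genes), but 4 and 7 after rescaling. Ppp1r3c, which targets a phosphatase to glycogen, had a median of 203 against 88.8 TPM (log2 fold change 1.65, adjusted p = 0.000303). Within the high-state libraries its fold change was 0.78 (adjusted p = 0.242). It was not called with rFibcd1 in both groups (adjusted p = 0.994), and the interaction did not pass the test (1.65 ± 0.45 SE, adjusted p = 0.426). Phkg1, the catalytic subunit of phosphorylase kinase, had a median of 48.2 against 77.3 TPM (log2 fold change -0.53, adjusted p = 0.00703). Among 33 amino acid and polyamine genes 12 were higher and 3 lower as deposited, but 5 and 8 after rescaling. Slc3a2, the heavy chain of several amino acid exchangers, had a median of 44.7 against 18.4 TPM (log2 fold change 1.35, adjusted p = 1.49e-06), without overlap. Asns, asparagine synthetase and a target of the integrated stress response, had a median of 7.97 against 3.19 TPM (log2 fold change 1.00, adjusted p = 0.000474). It was the robust gene of the 23 in that list, of which 5 were higher and 0 lower, beside 30.9% and 2.67% of all genes.

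Stress and timing genes were described by the same counts. In the unfolded protein response 12 of 26 were higher and 0 lower as deposited, and 2 and 0 after rescaling. Xbp1, its transcription factor, had a median of 66.5 against 41.9 TPM (log2 fold change 0.71, adjusted p = 0.000241), without overlap. Of 28 heat shock and chaperone genes 3 were higher and 3 lower as deposited and 0 and 4 after rescaling, with Hsph1, a chaperone of the Hsp110 family, at from 10.5 to 28.2 TPM (median 16.1) in cachectic and 21.1 to 27.9 (median 24.2) in non-cachectic libraries (log2 fold change -0.55 ± 0.19 SE, adjusted p = 0.0244). In the p53 list 10 of 25 were higher as deposited, with 4 higher and 2 lower after rescaling, and Cdkn1a, which encodes the cell-cycle inhibitor p21, had a median of 38.4 against 18.5 TPM (log2 fold change 1.26, adjusted p = 0.00146), with an adjusted p of 0.0502 under rescaling and the state term. In the antioxidant list 12 of 33 were higher and 1 lower as deposited, 1 and 4 after rescaling, and none was robust. Of 15 core clock genes 5 were higher and 1 lower, and after rescaling 0 and 1. Nr1d1, the clock repressor REV-ERB alpha, had a median of 53.7 against 84.9 TPM (log2 fold change -1.05, adjusted p = 0.0178). Nfil3, a clock output repressor, had a median of 28 against 10.9 TPM (log2 fold change 1.46, adjusted p = 0.000991). The hour at which tissues were taken was not in the sources used here, and its part in these values was not tested.

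Vessels added a smaller set. Of 10 endothelial markers 7 were higher and 0 lower as deposited and 3 and 1 after rescaling, with summed TPM of 296 to 448 (median 361) in the cachectic and 243 to 326 (median 292) in the non-cachectic group. Vwf, von Willebrand factor, had a median of 15.1 against 7.36 TPM (log2 fold change 0.92, adjusted p = 9.46e-05). Aplnr, the apelin receptor of endothelium, moved the other way and ranged from 0.79 to 5.73 TPM (median 2.91) in cachectic and 4.44 to 19.5 (median 13.4) in non-cachectic libraries (log2 fold change -1.58 ± 0.36 SE, adjusted p = 0.00125). Bcl6b, a transcriptional repressor of endothelium, ranged from 1.64 to 7.03 TPM (median 2.21) in cachectic and 5.4 to 13.5 (median 8.25) in non-cachectic libraries (log2 fold change -1.39 ± 0.18 SE, adjusted p = 3.8e-06) and was robust. Kdr, the VEGF receptor, had a median of 28.5 against 35.7 TPM (log2 fold change -0.32, adjusted p = 0.104) and was lower after rescaling (log2 fold change -0.55, adjusted p = 0.00292). Endothelial genes thus did not move together.

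Among the 15 lowest fold changes, 3 genes separated the groups. Nrep ranged from 4.56 to 48.8 TPM (median 21.7) in cachectic and 52.6 to 100.3 (median 72.3) in non-cachectic libraries (log2 fold change -1.78 ± 0.38 SE, adjusted p = 0.000787). Cda, cytidine deaminase, ranged from 1.66 to 8.05 TPM (median 4.48) in cachectic and 10.1 to 22.4 (median 13.3) in non-cachectic libraries (log2 fold change -1.54 ± 0.28 SE, adjusted p = 0.000137). Tecrl, an endoplasmic reticulum protein of heart and muscle, ranged from 3.33 to 8.56 TPM (median 5.09) in cachectic and 8.57 to 21.3 (median 15.9) in non-cachectic libraries (log2 fold change -1.28 ± 0.25 SE, adjusted p = 0.000289), and within the high-state libraries it was not called (log2 fold change -0.95, adjusted p = 0.0686). Lgr6, a receptor for R-spondins, ranged from 1.27 to 5.86 TPM (median 3.07) in cachectic and 3.67 to 16.5 (median 10.1) in non-cachectic libraries (log2 fold change -1.48 ± 0.29 SE, adjusted p = 0.000283), and Ky, a protease of the Z-disc, ranged from 3.04 to 40 TPM (median 26.1) in cachectic and 28.6 to 77.1 (median 52) in non-cachectic libraries (log2 fold change -1.43 ± 0.38 SE, adjusted p = 0.00465). Ky was not called within the high-state libraries either (log2 fold change -1.64, adjusted p = 0.0792). Mup1 and Mup2, urinary proteins that the liver makes, were nearly absent from the cachectic group, and in the non-cachectic group they ran from 0 to 239 and 256 TPM, highest in the liver-rich library 64. Neither was called with rescaling and the state term (adjusted p = 0.0589 for Mup1 and 0.0521 for Mup2). Their transcripts share most (94.8% for Mup1) or all of their 50-base words with other Mup genes.

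Ahcy, S-adenosylhomocysteine hydrolase, and Gm4737, an intronless copy of it, fell at opposite ends of the ranking. Ahcy (chr2:155059310-155074497) ranged from 11.9 to 84.7 TPM (median 27.1) in cachectic and 0.511 to 12.8 (median 0.833) in non-cachectic libraries (log2 fold change 2.98 ± 0.63 SE, adjusted p = 0.000641). Gm4737 (chr16:46152985-46155077) ranged from 0 to 28.4 TPM (median 11.5) in cachectic and 21.6 to 215 (median 32.3) in non-cachectic libraries (log2 fold change -2.81 ± 0.82 SE, adjusted p = 0.00871), and was not called with rescaling and the state term (log2 fold change -2.14, adjusted p = 0.0914) or within the high-state libraries (adjusted p = 0.162). Of the 50-base words of the Gm4737 transcript 90.4% also occur in that of Ahcy. Libraries fell into 3 patterns. In 5 of 10 cachectic libraries Gm4737 was below 1 TPM while Ahcy was expressed, in 5 of 9 non-cachectic libraries Ahcy was below 1 TPM while Gm4737 was expressed, and in the other 5 and 4 libraries both were at 1 TPM or more. The sum of both genes ran from 28.1 to 84.7 TPM (median 43.3) in the cachectic and from 30.7 to 221 TPM (median 33.5) in the non-cachectic group, where library 64 gave the highest value. The 2 values of this pair therefore cannot be read as separate expression levels. With rFibcd1 in both groups Gm4737 had a fold change of 0.26 (adjusted p = 0.873) and Ahcy of 1.40 (adjusted p = 0.142).

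**Figure D5:**
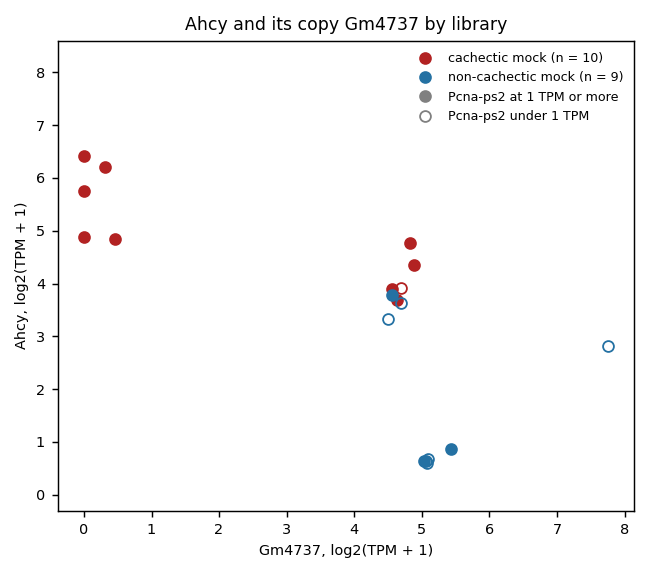
Each point is 1 of 19 mock libraries, with log2(TPM + 1) of Gm4737 on the horizontal and of Ahcy on the vertical axis, coloured by group and open where Pcna-ps2 was below 1 TPM. Points form 3 clusters, 5 cachectic libraries with Ahcy alone, 5 non-cachectic libraries with Gm4737 alone, and 9 libraries of both groups with both genes, of which library 64 lies far to the right.

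Several leading genes differed between the library states by more than between the groups. 2310075C17Rik ranged from 0.947 to 56.6 TPM (median 32.9) in cachectic and 0.151 to 20.9 (median 0.898) in non-cachectic libraries (log2 fold change 3.01 ± 0.74 SE, adjusted p = 0.00245), and its difference between states (log2 3.66, adjusted p = 5.72e-21) exceeded its fold change with rescaling and the state term, 0.88 (adjusted p = 0.00545). Serpinb1c, an intracellular protease inhibitor, ranged from 0.19 to 76.7 TPM (median 40.9) in cachectic and 0.216 to 38.2 (median 0.547) in non-cachectic libraries (log2 fold change 2.81 ± 0.84 SE, adjusted p = 0.0103), and with rescaling and the state term its fold change was 0.47 (adjusted p = 0.385). Cd300lh, a receptor of the immunoglobulin family, ranged from 0 to 11.3 TPM (median 0.187) in cachectic and 0 to 23.7 (median 11.1) in non-cachectic libraries (log2 fold change -2.45 ± 0.6 SE, adjusted p = 0.00238), and was above 1 TPM in the cachectic group in library 22 alone. Cd300lh was not called within the high-state libraries (log2 fold change -1.14, adjusted p = 0.104). Tmem252, a transmembrane protein, was not called between the states (log2 difference 0.18, adjusted p = 0.624) and ranged from 0.919 to 22.2 TPM (median 8.56) in cachectic and 0.20 to 0.764 (median 0.345) in non-cachectic libraries (log2 fold change 2.77 ± 0.38 SE, adjusted p = 5.83e-06), without overlap. Of the 15 highest genes 5 differed by state at an adjusted p under 0.05 and 11 were robust, and of the 15 lowest 5 differed by state and 12 were robust.

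The same pair of tumours was also compared with rFibcd1 in both groups, in libraries that are not among the 19, within the same limma fit. There 958 genes were higher (7.14%) and 265 lower (1.97%), with a median log2 fold change of 0.08. Of the 15 highest genes all 15 had the same sign and 10 were called, and of the 15 lowest 13 had the same sign and 7 were called. Of the 620 robustly higher genes 614 had the same sign and 288 were called, and of the 229 robustly lower genes 224 and 101. For Serpina3n the fold change with rFibcd1 was 3.35, for Mt2 3.32, for Fkbp5 1.46 and for Socs3 1.59. Of 25 interleukin-6 genes 9, of 26 glucocorticoid-response genes 5, of 78 ribosomal protein genes 72 and of 38 proteasome subunits 29 were called higher there, as deposited. The median of the proteasome list was 0.34.

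Whether the tumour effect itself differed between mock and rFibcd1 was tested by the interaction, which called 3 genes (0.0223%), with 1180 at an unadjusted p under 0.05. Irf2bp2, a transcriptional corepressor, ranged from 13.7 to 24 TPM (median 21.1) in cachectic and 9.4 to 14.5 (median 11.4) in non-cachectic libraries under mock, with a fold change of 0.72 against -0.13 with rFibcd1 (difference 0.86 ± 0.15 SE, adjusted p = 0.0272). Ypel2 had a fold change of 0.38 against -0.55 (difference 0.93 ± 0.18 SE, adjusted p = 0.0321). Gm3411, a predicted gene near the filter on low values, had -0.75 against 0.83 (difference -1.58 ± 0.3 SE, adjusted p = 0.0321). For all 3 genes the comparisons had opposite signs. Without cachectic mock library 8 the interaction called 0 genes.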

How the data were processed

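Members and gene lists were chosen with earlier results of these data known. Diaphragm RNA was sequenced in 39 libraries of 4 groups, named in the table's column titles. The deposited TPM were made by the authors with CLC Genomics Workbench on mm10. The annotation is not given in the sources used here. Labels and methods name different kits and instruments, which was not resolved. Depth is unknown, and no column of values was left out (0).

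TPM were transformed to log2(TPM + 1) and genes kept at TPM of at least 1 in at least 9 libraries. The 4 groups entered one limma fit (version 3.58.1 in R 4.3.3, eBayes with trend, two-sided, Benjamini-Hochberg, called at adjusted p under 0.05), tested on simulated data. The study's own tests were Kruskal-Wallis and Dunn. States were set by Pcna-ps2 at 1 TPM. Tables and figures used Python 3.11.15, pandas 2.3.3 and matplotlib 3.10.9.

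Named genes were the 15 highest and 15 lowest fold changes among genes called with the same sign as deposited and rescaled, at a mean of at least 5 TPM over the mock libraries, and at most 8 members a list, largest called changes first, then defining members. Positions are GENCODE M21 (96.7% of genes matched), and promoter windows RefSeq on GRCm38.p6 (9954 genes, 74.1%). Shared sequence was counted in transcript words of 50 bases. Alternatives were other pseudocounts, filters, scalings, weights, models, thresholds and left-out libraries.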

Additional observations from a re-analysis of the deposited data

Results flagged for a closer look

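In 9 of 60 groups of values (30 leading genes in each of the 2 mock groups) 1 library lay far from the others, where chance alone gives about 1 in 20. In the cachectic group library 22, the low-state library, was lowest for Hp (26.6 TPM, next 227), 2310075C17Rik (0.947 TPM) and Serpinb1c (0.190 TPM), and highest for Cd300lh (11.3 TPM). Cachectic library 32 was highest for Actc1 (14.1 TPM). In the non-cachectic group library 64, which had the highest liver-marker TPM, was highest for Saa1 (67.4 TPM), Itih4 (157 TPM) and Gm4737 (215 TPM) and lowest for Lgr6 (3.67 TPM). The part of library state and liver RNA in these values was not tested.

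The tumour effect differed between mock and rFibcd1 in 3 genes by the interaction in limma, with a difference of log2 fold changes of -1.58 for Gm3411, 0.86 for Irf2bp2 and 0.93 for Ypel2. The interaction in limma called 0 genes with the state term (795 at an unadjusted p under 0.05), with mitochondrial transcripts removed (692), with a clock term (504), in the high-state libraries (453) and without cachectic mock library 8 (874).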

How the results depend on the processing

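The mock comparison called 4501 genes. Counts outside 1.5 times that number were 2170 with median-ratio scaling, 1942 with mitochondrial transcripts removed (924 higher, 1018 lower), 2297 with quantile normalization (976 higher, 1321 lower), 7341 with array weights, 2059 with the state term (1652 higher, 407 lower), 1599 with the state term and scaling, and 846 in the high-state libraries, where fewer libraries entered. Also outside was the count of 306 at an unadjusted limma p under 0.05 and an absolute log2 fold change above 1. The study set these cutoffs for this comparison, but with p-values from its own tests. Within 1.5 times were a pseudocount of 0.1 (4544), no filter (4260), a mean TPM of 5 (3705), a clock term (3607), the fit without library 64 (4007), the fit of the mock groups alone (6393) and the Mann-Whitney test (5908). Leaving out 1 library at a time gave 3627 (non-cachectic mock library 62) to 5552 (cachectic rFibcd1 library 11). The 3 interaction calls became 1 with no filter, 0 with mitochondrial transcripts removed (692 at unadjusted p under 0.05), 150 with array weights, 0 with the state term (795 unadjusted), 0 in high-state libraries (453 unadjusted) and 0 with a clock term (504 unadjusted). At an unadjusted limma p under 0.05 and an absolute difference above 1 the interaction count was 53. The study's methods describe no such interaction test. When 1 library was left out the interaction called 0 (without cachectic mock library 8) to 4 genes (without cachectic rFibcd1 library 3). The mitochondrial share difference ran from -10.1 (without non-cachectic library 66) to -8.81 points (without cachectic library 32) when a library was left out. Of 388 further values of the 30 leading genes 21 missed the threshold, all with the state term or in the high-state libraries, and none changed sign. Of 186 recomputed list medians 73 moved by more than 1 SD between libraries. Apart from what the construction shows, the cause was not tested. No paired analysis was possible because the column numbers of the table cannot be tied to the labelled replicate numbers. Depth limits cannot be stated for TPM.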
